A study of Mus musculus with 15 samples.

Results

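The 7 mouse Cyp3a genes Cyp3a11, Cyp3a13, Cyp3a16, Cyp3a25, Cyp3a41a, Cyp3a41b and Cyp3a44 were followed in liver RNA-seq data. They were taken as the rows of the deposited gene table whose symbol is one of these names, 7 of 55573 rows. All 7 were among the 17655 genes with enough reads to be tested. The mice were 8 weeks old and carried either no functional Esr1, the gene of estrogen receptor alpha (ESR1KO), or its wild type form (WT). There were 3 WT females (FWT), 3 WT males (MWT), 5 ESR1KO females (FKO) and 4 ESR1KO males (MKO), all labelled as the strain B6N(Cg)-Esr1tm4.2Ksk/J. The ESR1KO mice had heterozygous parents, and the series title calls the WT mice littermates. In this line exon 3 of Esr1 is deleted in the whole body, so the liver, the gonads and the pituitary all lack the receptor. Each library came from the whole liver tissue of 1 mouse, and p-values measure the spread between these mice.

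Cyp3a enzymes are cytochrome P450 monooxygenases of the endoplasmic reticulum. They hold a heme group, receive electrons from P450 oxidoreductase (Por) and oxidise steroids, bile acids and a large share of drugs and other foreign compounds. In hepatocytes several members are switched on by the xenobiotic receptors PXR (Nr1i2) and CAR (Nr1i3), and the sex-dependent pattern of growth hormone release sets the sex bias of many other liver P450 genes. Cyp3a11 is the main adult mouse counterpart of the human drug-metabolising CYP3A4. Cyp3a13 is also an enzyme of the gut, and Cyp3a41a, Cyp3a41b and Cyp3a44 are known as genes of the female liver.

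Total counts per mouse ran from 27799061 to 78624766, and the normalisation factors from 0.957 to 1.04. Levels are given as CPM, the count a gene would have in a library of 1000000 counts. Esr1 itself ranged from 74.7 to 88.2 CPM in WT females, from 25.0 to 52.0 in WT males, from 9.67 to 19.7 in ESR1KO females and from 8.22 to 16.1 in ESR1KO males, so no ESR1KO mouse reached the lowest WT mouse of its sex. The 7 hepatocyte markers, such as albumin, were all found. Their summed level was 105429 to 112301 CPM in WT females and 81201 to 81489 CPM in WT males. In ESR1KO mice it was 86857 to 111638 CPM in females and 91012 to 100653 CPM in males, so WT males lay below the other groups. By edgeR 0 of the 7 markers passed in ESR1KO against WT mice of either sex. Of all tested genes, 3.14% were higher and 2.57% lower in ESR1KO females, and 0.833% higher and 0.583% lower in ESR1KO males. A count of 0 among 7 is near these shares and tells little about hepatocyte content. In whole liver, fewer cells of a type and less RNA per cell cannot be told apart.

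All 7 genes lie on the minus strand of chromosome 5 (GRCm38, GENCODE M21). Cyp3a13 stands alone at chr5:137892932-137921619. The other 6 sit 7.51 Mb away within 573 kb at chr5:145436309-146009618, in the order Cyp3a16 (chr5:145436309-145469723), Cyp3a41b (chr5:145558664-145584730), Cyp3a41a (chr5:145694049-145720136), Cyp3a44 (chr5:145773983-145805874), Cyp3a11 (chr5:145854426-145879964) and Cyp3a25 (chr5:145977194-146009618). The coding sequences of Cyp3a41a and Cyp3a41b were 99.9% identical. Those of Cyp3a11 and Cyp3a44 were 94.9% identical, and those of Cyp3a11 and Cyp3a25 76.1%.

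The sequences just before the gene starts are shown because genes of this cluster with similar sequences had very different levels. The windows below run from 140 to 21 bases before the RefSeq start (GRCm38.p6, written in the direction of the gene). Capitals mark the letters TATAAA, the letters of a TATA box but here farther from the start than such a box lies, and ATCAAT, which is the motif ATTGAT read on the other strand, a motif of the type bound by HNF6 and CUX2.
Cyp3a16 (chr5:145469744-145469863, minus strand): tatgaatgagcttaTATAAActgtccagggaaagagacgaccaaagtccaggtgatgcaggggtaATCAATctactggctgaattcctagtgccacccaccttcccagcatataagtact
Cyp3a41a (chr5:145720157-145720276, minus strand): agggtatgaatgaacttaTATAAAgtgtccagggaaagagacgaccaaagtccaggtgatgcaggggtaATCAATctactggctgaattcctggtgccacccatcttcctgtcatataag
Cyp3a41b (chr5:145584751-145584870, minus strand): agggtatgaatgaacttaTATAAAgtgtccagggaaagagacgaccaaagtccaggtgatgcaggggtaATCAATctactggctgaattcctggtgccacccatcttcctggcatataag
Cyp3a44 (chr5:145805895-145806014, minus strand): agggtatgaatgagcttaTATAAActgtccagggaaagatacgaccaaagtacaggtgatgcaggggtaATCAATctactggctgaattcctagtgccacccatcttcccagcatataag
Cyp3a11 (chr5:145879875-145879994, minus strand): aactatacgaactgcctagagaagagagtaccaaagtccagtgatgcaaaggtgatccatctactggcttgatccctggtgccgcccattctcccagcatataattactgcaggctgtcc

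Over the full 250 bases before the start, Cyp3a16, Cyp3a41a, Cyp3a41b and Cyp3a44 were 90.9% to 99.6% identical to each other, and each was 71.7% to 76.2% identical to Cyp3a11. Cyp3a41a and Cyp3a41b differed at 1 position. ATTGAT, searched on both strands, was found in these 4 genes and in none of the other 3 members, against 6.97% of 27025 mouse promoters of the same length. As the 4 windows are so alike, their matches to a motif are not 4 separate observations. TATAAA was found in the same 4, starting at position -122 or -126 counted from the gene start, and in Cyp3a11, at -234, against 13% of promoters. AGGTCA, the core site of many nuclear receptors, was found in Cyp3a11, Cyp3a25 and Cyp3a44, against 13.8%. The STAT5 and BCL6 type motif TTCNNNGAA, held by 7.18% of promoters, and the palindromic estrogen response element, held by 0.0629%, had no match in the 7 windows. The RefSeq start of Cyp3a11 lies 110 bases inside the outermost GENCODE transcript.

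The first comparison asked how the family differed between WT females and WT males. 4 members, Cyp3a16, Cyp3a41a, Cyp3a41b and Cyp3a44, were expressed at 29.9 to 360 CPM in WT females and were at or almost at 0 in WT males. With edgeR's quasi-likelihood test, 4 of 7 members were higher in WT females and 0 were lower at a Benjamini-Hochberg adjusted p under 0.05. Over all tested genes 2.67% were higher and 2.2% lower. Cyp3a16, Cyp3a41a and Cyp3a41b had enough reads to be tested only through the WT females, so a call could only be higher there. The members were also chosen with earlier results of these data known. The count beside these shares is therefore a description and no test of the family.

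Cyp3a44 reached 236, 193 and 360 CPM in the 3 WT females. The 3 WT males had 0, 5 and 1 reads of it, at most 0.122 CPM. Its log2 fold change was 12.53 (SE 0.46, edgeR adjusted p = 1.71e-11), and the ratio of the pooled reads was 6270 with a counting interval of 2880 to 17085. Without the WT male that held 5 of the 6 reads the log2 fold change was 14.40. The groups did not overlap, and intervals here cover counting error only.

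Cyp3a41a was at 222, 204 and 321 CPM in the WT females and had no read in any WT male. Against a floor of 3 reads over the group, it was at least 11852-fold higher in WT females (edgeR adjusted p = 3.02e-12). Its near copy Cyp3a41b was at 29.9, 30.6 and 59.9 CPM in the same mice, again with no read in the WT males, at least 1885-fold higher in WT females (edgeR adjusted p = 4.44e-08). The ratio of Cyp3a41b to Cyp3a41a stayed between 0.135 and 0.187 in the 3 WT females. Windows of 100 bases were shared with another Cyp3a transcript for 90.8% of Cyp3a41a and 88.2% of Cyp3a41b. How the counting treated reads that map to both is not given in the sources used here. The split between these 2 genes and the level of each are therefore uncertain, as is their sum if such reads were left out.

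Cyp3a16, a member described as a fetal and neonatal enzyme, varied most among the WT females, at 158, 48.1 and 164 CPM. It had no read in any of the other 12 mice. The floor gave at least a 6105-fold excess over WT males (edgeR adjusted p = 0.000106), and the WT females did not overlap with any other group. Only 0.123% of its windows were shared with another member. The mouse with the low Cyp3a16 level had 204 CPM of Cyp3a41a and 193 CPM of Cyp3a44, the lowest of the 3 by a smaller margin, so that the ratio of Cyp3a16 to Cyp3a44 ran from 0.249 to 0.667 across the 3 WT females.

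**Figure D1:**
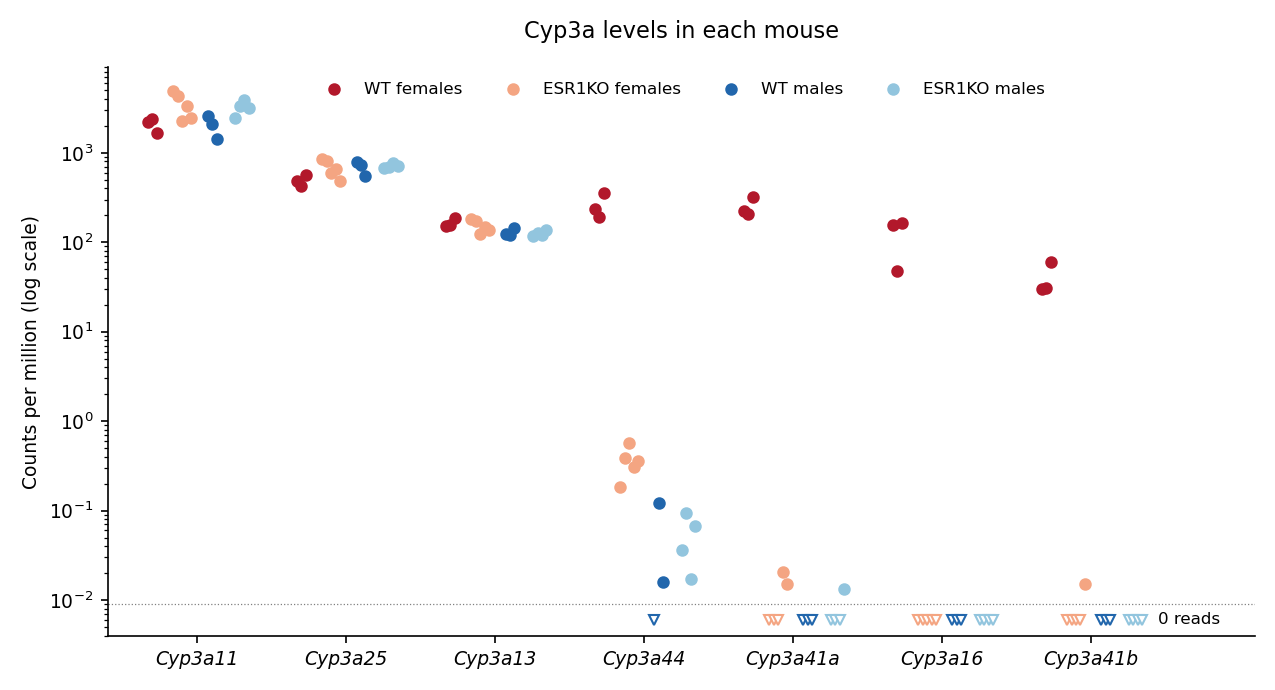
CPM of each Cyp3a gene in each mouse on a log scale, with 1 point per mouse coloured by group and open triangles below the dotted line for mice with 0 reads. Cyp3a11, Cyp3a25 and Cyp3a13 sit above 100 CPM in all 15 mice, while Cyp3a44, Cyp3a41a, Cyp3a16 and Cyp3a41b reach 29.9 to 360 CPM in WT females and at most 0.573 CPM elsewhere.

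Cyp3a11, Cyp3a13 and Cyp3a25 were expressed in both sexes and did not pass the test. WT females had 2090 ± 384 CPM of Cyp3a11 (SD, n = 3), and WT males had 2037 ± 563 CPM (SD, n = 3). Cyp3a13 was at 165 ± 20.8 CPM (SD, n = 3) and 130 ± 13.6 CPM (SD, n = 3), a log2 difference of 0.35 (SE 0.14, edgeR adjusted p = 0.21). Its 2 groups did not overlap, with 152 CPM the lowest WT female and 145 CPM the highest WT male. Cyp3a25 was at 489, 420 and 558 CPM in WT females and 795, 739 and 554 CPM in WT males, a log2 difference of -0.51 (SE 0.19, edgeR adjusted p = 0.168), with overlapping groups.

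The second comparison asked how ESR1KO females differed from WT females. The same 4 genes that set the WT sexes apart fell in the ESR1KO females, to between 0 and 83 reads over all 5 mice. By edgeR's quasi-likelihood test 4 of 7 members were lower and 0 were higher, against 2.57% lower and 3.14% higher over all tested genes. Both comparisons use the same 3 WT females. Cyp3a16, Cyp3a41a and Cyp3a41b had enough reads to be tested only through these mice, so a call could only be lower here. This count too is a description.

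Cyp3a16 fell from 18403 reads over the 3 WT females to 0 reads over the 5 ESR1KO females, at least 9858-fold lower against the floor (edgeR adjusted p = 4.77e-05). Cyp3a41a fell from 35726 to 2 reads, a ratio of 28705 with a counting interval of 7946 to 237038 (edgeR adjusted p = 2.93e-13). Cyp3a41b fell from 5681 reads to 1 read, a ratio of 9129 with an interval of 1638 to 360646 (edgeR adjusted p = 9.8e-09). None of these 3 genes had more than 1 read in an ESR1KO female, and the groups did not overlap.

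Cyp3a44 fell by 9.51 on the log2 scale (SE 0.29, edgeR adjusted p = 1.9e-12), and a low level remained. The 5 ESR1KO females had 8, 14, 22, 15 and 24 reads, or 0.182, 0.386, 0.573, 0.310 and 0.362 CPM, so each of the 5 mice held reads of this gene. In WT females Cyp3a44 and Cyp3a41a were counted at similar size, 37796 and 35726 reads. In ESR1KO females the same pair stood at 83 and 2 reads. The Cyp3a41a counts depend on the unknown handling of reads that also match Cyp3a41b.

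**Figure D2:**
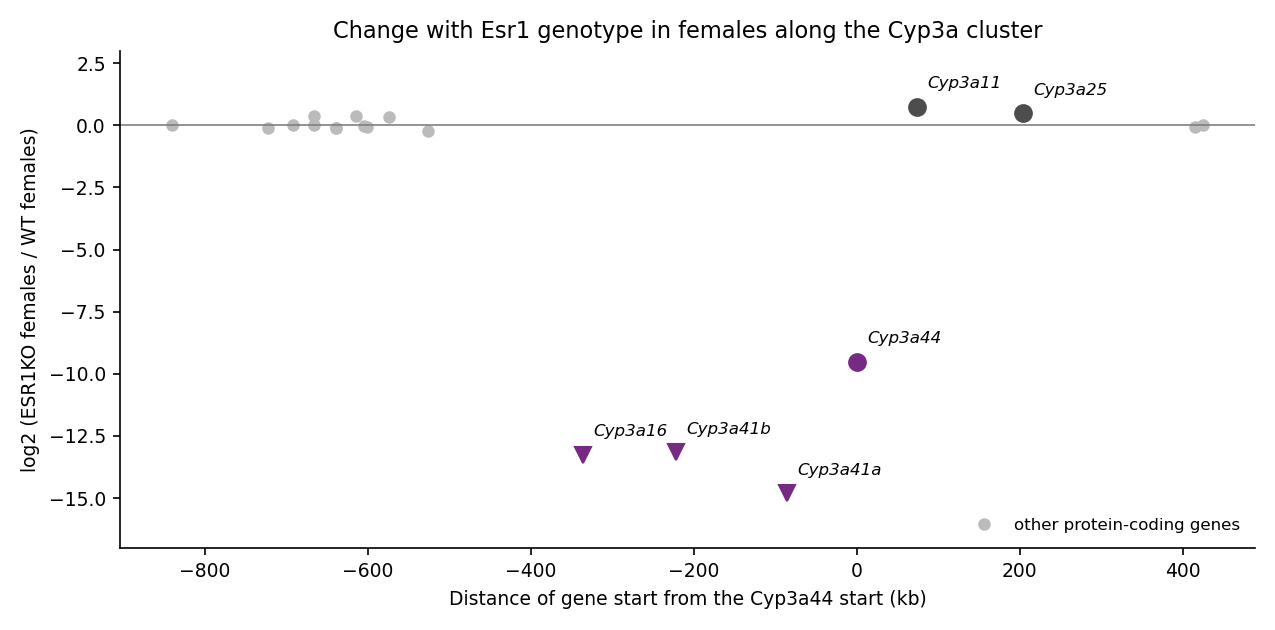
The log2 ratio of ESR1KO to WT females for genes of the cluster, against the distance of each gene's start from the Cyp3a44 start in kb. Triangles are pooled read ratios (Cyp3a16 at its bound, Cyp3a41a and Cyp3a41b from 2 reads and 1 read), purple and dark circles are fitted values of the other members, and grey circles are other tested protein-coding genes. The 4 genes that fell stand side by side, with Cyp3a11 and Cyp3a25 next to them above 0.

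The 4 genes that fell were neighbours along the chromosome. Cyp3a11 lies 48552 bases from Cyp3a44, and Cyp3a25 lies 97230 bases beyond Cyp3a11. Of 69 other protein-coding genes within 500 kb of a member, 47 were tested. By edgeR 0 of the 47 passed in ESR1KO against WT females, with 9 at an unadjusted p under 0.05 and 1 call by DESeq2. Over all tested genes 3.14% were higher and 2.57% lower, so a count of 0 among 47 is near that share. The shares of all tested genes at an unadjusted p under 0.05, or called by DESeq2, were not computed. Counts of these 2 kinds, here and below, therefore show neither an excess nor a lack. The median log2 change of the 47 was -0.077, with a lowest value of -0.84 and a highest of 0.78. Between WT females and WT males edgeR also called 0, with 10 at an unadjusted p under 0.05 and 2 calls by DESeq2. The shares over all tested genes were 2.67% higher and 2.2% lower there.

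Inside the cluster, the unprocessed pseudogene Cyp3a63-ps, between Cyp3a41b and Cyp3a41a, was read at 1.67, 2.90 and 1.74 CPM in the WT females and at 1 read in all other mice together. Its transcript shares 2.58% of the 100-base windows of Cyp3a44. Cyp3a59, on the opposite strand beyond Cyp3a25, had group means from 27.2 to 30.8 CPM, and Cyp3a57, on the opposite strand beyond Cyp3a16, from 0.249 to 0.329 CPM. The pseudogene Cyp3a61-ps1 had 0 reads. Cyp3a25 shared 6.05% of its windows with Cyp3a59.

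Cyp3a11 and Cyp3a25 were higher on average in ESR1KO than in WT females without passing the test. Cyp3a11 was at 2222, 2390 and 1657 CPM in WT females and at 4930, 4336, 2285, 3352 and 2453 CPM in ESR1KO females. The log2 difference was 0.73 (SE 0.26, edgeR adjusted p = 0.107), and 1 ESR1KO female lay inside the WT range. DESeq2 gave an adjusted p of 0.0388 for the same change, and edgeR without a filter on low counts 0.049. Cyp3a25 was at 853, 818, 591, 657 and 487 CPM in ESR1KO females, a log2 difference of 0.48 (SE 0.17, edgeR adjusted p = 0.117) from WT females with overlapping groups. Without the fifth ESR1KO female its adjusted p was 0.0366. Cyp3a13 was at 152 ± 23.7 CPM (SD, n = 5), a log2 difference of -0.12 (SE 0.13, edgeR adjusted p = 0.616).

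Other cell and zone markers moved beside these levels. The summed level of 7 pericentral hepatocyte markers was 8016 to 10121 CPM in WT females and 4306 to 8811 CPM in ESR1KO females, with 2 of 7 markers lower by edgeR and none at 0. Of 7 periportal markers, none at 0, 1 was higher, while their summed level ran from 6123 to 8936 CPM in WT and from 4588 to 6557 CPM in ESR1KO females. The summed level of 4 markers of intestinal epithelium, where Cyp3a11 and Cyp3a13 are also expressed, was 39.3 to 73.6 CPM in WT and 65.4 to 111 CPM in ESR1KO females, with 1 of 3 tested markers higher. The defining intestinal factor Cdx2 had 0 reads in all 15 mice. Of 5 cholangiocyte markers 1 was higher, with summed levels of 32.4 to 32.9 CPM and 43.7 to 51.4 CPM. Over all tested genes 3.14% were higher and 2.57% lower in ESR1KO females. The part of these marker shifts in the Cyp3a levels was not tested.

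In males the comparison of ESR1KO with WT gave no member past the test. The count was 0 by edgeR and 0 by DESeq2, with 1 member at an unadjusted p under 0.05. Over all tested genes 0.833% were higher and 0.583% lower in ESR1KO males. Cyp3a16, Cyp3a41a and Cyp3a41b had 0 or 1 read over each male group, so the count holds no information on them. The member with the small p was Cyp3a11, at 2562, 2105 and 1442 CPM in WT males and 2447, 3294, 3910 and 3157 CPM in ESR1KO males. Its log2 difference was 0.65 (SE 0.27, edgeR adjusted p = 0.328), close in size to that in females, and the lowest ESR1KO male lay inside the WT range. Cyp3a25 differed by 0.04 (SE 0.18) and Cyp3a13 by -0.05 (SE 0.13) on the log2 scale, with edgeR adjusted p of 0.971 and 0.933.

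The 4 genes of the female pattern stayed at or near 0 in ESR1KO males. Cyp3a16 and Cyp3a41b had no read, and Cyp3a41a had 1. Cyp3a44 had 1, 4, 1 and 5 reads against 0, 5 and 1 in WT males, a log2 difference of 0.35 (SE 0.98, edgeR adjusted p = 0.933). Beside the male comparison, 2 of 5 cholangiocyte markers were higher in ESR1KO males, with summed levels of 34.0 to 55.6 CPM in WT and 41.3 to 59.3 CPM in ESR1KO, and the intestinal markers summed to 47.8 to 55.4 CPM and 73.8 to 105 CPM with 0 of 3 past the test.

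**Figure D3:**
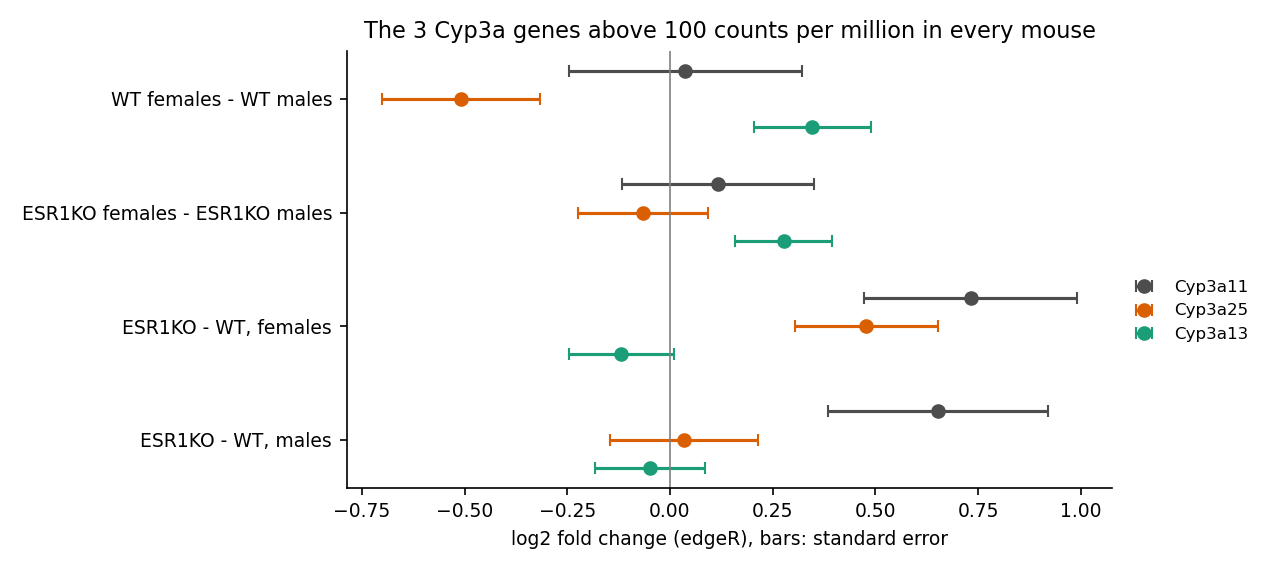
Log2 fold changes from edgeR for Cyp3a11, Cyp3a25 and Cyp3a13 in 4 comparisons, with bars for the standard error. Cyp3a11 lies to the right of 0 in ESR1KO against WT mice of both sexes, at 0.73 in females and 0.65 in males, and none of the 12 values passed an adjusted p of 0.05.

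Whether the Esr1 genotype acted differently in females and males was tested as an interaction, the log2 change in females minus that in males. By edgeR 2 of 7 members had a lower value in females, against 0.923% of all genes lower and 1.02% higher. For Cyp3a44 the difference was -9.87 (SE 1.31, edgeR adjusted p = 0.000305). For Cyp3a41a the adjusted p was 0.0305, and that value rests on 0 reads in WT and 1 read in ESR1KO males. Without the fourth ESR1KO male, which held that read, 1 member passed. DESeq2 called 3 members. Cyp3a16 and Cyp3a41b had 0 reads in both male groups, so their change in males has no log ratio and the interaction gave no information. With the 4 genes added up to 1 row, the difference was -11.30 (SE 1.3, edgeR adjusted p = 6.42e-05). In males all reads of this row but 1 were of Cyp3a44, so its male side repeats that gene and adds nothing on the other members. For Cyp3a11 it was 0.08 (SE 0.37, edgeR adjusted p = 0.944), and for Cyp3a25 0.44 (SE 0.25, edgeR adjusted p = 0.426).

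The sexes were then compared without Esr1. By edgeR 0 of 7 members differed between ESR1KO females and ESR1KO males, with 2 at an unadjusted p under 0.05 and 1 call by DESeq2. Over all tested genes 0.159% were higher and 0.113% lower in ESR1KO females. Cyp3a16, Cyp3a41a and Cyp3a41b had 0 to 2 reads over each ESR1KO group and passed the expression filter through the WT females. The count therefore holds no information on a sex difference of these members. The gene called by DESeq2 was Cyp3a44. Its lowest ESR1KO female stood at 0.182 CPM and its highest ESR1KO male at 0.0933 CPM, so the groups did not overlap. The log2 difference was 2.67 (SE 0.56, edgeR adjusted p = 0.0583, DESeq2 adjusted p = 6.96e-05), and the ratio of 83 to 11 pooled reads was 6.57 after scaling to library size, with a counting interval of 3.49 to 13.7. The adjusted p by edgeR was 0.0315 to 0.05 without WT female 2, WT female 3 or WT male 2, mice that enter this comparison through the shared estimate of spread.

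Against WT males, ESR1KO females had 1 of 7 members higher and 0 lower, against 1.38% of all genes higher and 1.23% lower. Here too Cyp3a16, Cyp3a41a and Cyp3a41b had 0 to 2 reads over each group, too few to compare. The member that passed was again Cyp3a44, with a log2 difference of 3.02 (SE 0.67, edgeR adjusted p = 0.0216). Its pooled ratio was 8.57 with an interval of 3.77 to 24.02. The call was lost without the first WT male (adjusted p = 0.0958 by edgeR) or the third (edgeR adjusted p = 0.15), the males with 0 and 1 reads, and the log2 difference was 4.88 without the second. The ranges of Cyp3a44 thus lay highest in WT females, then in ESR1KO females. Both male groups lay lower, and their values of 0 to 0.122 CPM and 0.0174 to 0.0933 CPM overlapped. The step between ESR1KO females and males rests on few reads, with 8 in the lowest ESR1KO female and 5 in the highest WT male. Against ESR1KO males it did not pass by edgeR (adjusted p = 0.0583).

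**Figure D4:**
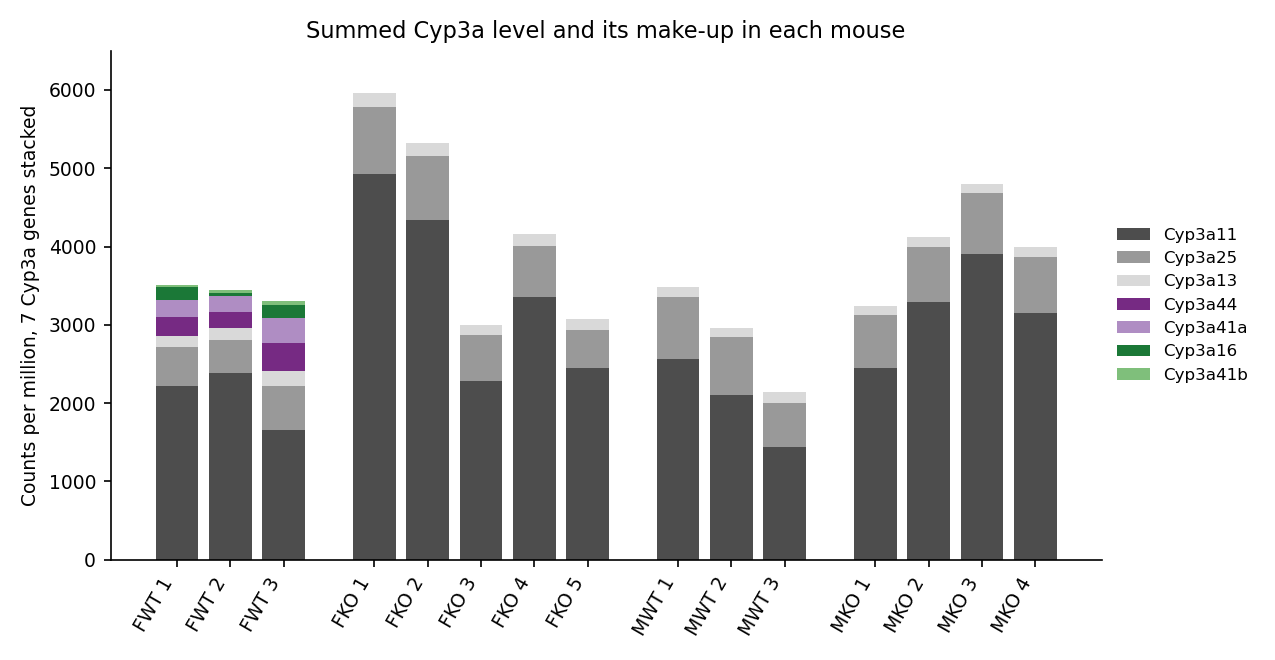
Summed level of the 7 genes in each mouse in CPM, stacked by gene, for WT females (FWT), ESR1KO females (FKO), WT males (MWT) and ESR1KO males (MKO). The coloured segments of Cyp3a44, Cyp3a41a, Cyp3a16 and Cyp3a41b are visible in the 3 WT females, where they made up 13.8% to 27.3% of the sum, and not in the other mice.

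The family's reads were also added up. The sum was 3419 ± 102 CPM (SD, n = 3) in WT females, 2863 ± 675 CPM (SD, n = 3) in WT males, 4305 ± 1325 CPM (SD, n = 5) in ESR1KO females and 4041 ± 637 CPM (SD, n = 4) in ESR1KO males, with overlapping ranges. The 4 female genes made up 19.9% ± 6.87 (SD, n = 3) of the sum in WT females and at most 0.0191% in any other mouse. The share in WT females depends on how reads matching both Cyp3a41a and Cyp3a41b were counted. Cyp3a11 made up on average 61.0% in WT females and 70.7% in WT males, and in ESR1KO mice 80.1% in females and 78.9% in males. The WT female with the largest share of the 4 genes, 27.3%, had the smallest share of Cyp3a11, 50.1%, as shares of 1 sum must move against each other.

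Per kilobase of the longest coding transcript, which allows levels of different genes to be set side by side, Cyp3a11 had the highest mean in each group. Its length weighs on this: all its annotated exons together span 5093 bases against 2344 in that transcript. Per kilobase of all exons its mean fell to 410 CPM in WT females, beside 235 CPM for Cyp3a25, and to 400 CPM in WT males, beside 334 CPM for Cyp3a25, with Cyp3a11 still the higher of the pair. In WT females it stood at 892 ± 164 CPM per kb (SD, n = 3), followed by Cyp3a25 at 245 ± 34.4, Cyp3a44 at 134 ± 44.1, Cyp3a41a at 121 ± 30.5, Cyp3a16 at 71.2 ± 37.6, Cyp3a13 at 55.8 ± 7.02 and Cyp3a41b at 19.5 ± 8.31. Cyp3a44, Cyp3a41a and Cyp3a16 were neighbours in this order whose bands of mean ± SD overlapped, as were Cyp3a16 and Cyp3a13. The single WT females did not overlap between Cyp3a41a, at 99.1 to 156 CPM per kb, and Cyp3a16, at 27.8 to 94.8 CPM per kb. The places of Cyp3a41a and Cyp3a41b also depend on the unknown handling of reads that match both. In ESR1KO females the order was Cyp3a11 at 1481 ± 493 CPM per kb (SD, n = 5), Cyp3a25 at 341 ± 76.9 and Cyp3a13 at 51.4 ± 8.01, with Cyp3a44 at 0.185 ± 0.0723. ESR1KO males had Cyp3a11 at 1366 ± 256 CPM per kb (SD, n = 4), Cyp3a25 at 357 ± 19.5 and Cyp3a13 at 42.5 ± 2.87.

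Around their group means, Cyp3a11 and Cyp3a25 varied together over the 15 mice with r = 0.72, Cyp3a13 and Cyp3a25 with r = 0.49 and Cyp3a11 and Cyp3a13 with r = 0.33, given as a description over values that share their libraries. Leaving out 1 mouse at a time moved these values to between 0.64 and 0.88, 0.33 and 0.78, and 0.089 and 0.57. The genes outside the family whose log2 CPM followed the members most closely over the 15 mice were the sulfotransferases Sult2a1, Sult2a2 and Sult3a2 for Cyp3a16 (r = 0.998 for Sult2a1), for Cyp3a41a (0.997 for Sult2a2) and for Cyp3a41b (0.997 for Sult3a2). For Cyp3a44 they included Cyp2b13 (r = 0.979) and Sult3a1. These values mostly express that the 3 WT females stand apart from the other 12 mice. For Cyp3a11 they were Syap1 (r = 0.933), Ndufa6 and Apoa2, for Cyp3a25 Mtch2 (0.921), Ndufs1 and Rcbtb2, and for Cyp3a13 Gda (0.906), AW112010 and 5730596B20Rik.

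The genes that act with the enzymes were read from lists. Over all tested genes edgeR called 3.14% higher and 2.57% lower in ESR1KO females, and 0.833% higher and 0.583% lower in ESR1KO males. The counts at an unadjusted p or by DESeq2 in these lists have no such share beside them. Of 7 electron donors and membrane partners, 1 fell in ESR1KO females and 0 rose, and 0 moved in males by edgeR or DESeq2, with 2 at an unadjusted p under 0.05. The gene that fell was Por, the reductase that feeds electrons to all microsomal P450 enzymes. It was at 489 to 580 CPM in WT females and 184 to 387 CPM in ESR1KO females with no overlap, a log2 change of -0.96 (SE 0.24, edgeR adjusted p = 0.0301). In males it differed by 0.05 (SE 0.26, edgeR adjusted p = 0.972), and WT males were at 232 to 387 CPM. Ephx1, the microsomal epoxide hydrolase, differed by 0.56 (SE 0.24, edgeR adjusted p = 0.172) in females, and Pgrmc2, a heme-binding partner, by 0.54 (SE 0.2, edgeR adjusted p = 0.254) in males.

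Of 12 genes of heme synthesis and breakdown, edgeR called 0 in either sex, with 2 at an unadjusted p under 0.05 in females and 3 in males, and DESeq2 called 0 and 1. The smallest p in females belonged to the biliverdin reductase Blvrb (log2 difference 0.32, edgeR adjusted p = 0.0966) and in males to the heme oxygenase Hmox2 (-0.26, edgeR adjusted p = 0.155). Of 12 xenobiotic receptors and liver factors 11 were tested, all but Vdr. By edgeR and DESeq2 0 changed in either sex with Esr1 genotype. At an unadjusted p under 0.05 there were 4 in females and 1 in males. Counts of 0 in lists of 11 or 12 genes are near the shares over all tested genes given above. The receptor CAR (Nr1i3) was 0.95 higher on the log2 scale in WT females than in WT males (SE 0.23, edgeR adjusted p = 0.0202), and differed by -0.54 (SE 0.2, edgeR adjusted p = 0.119) in ESR1KO against WT females. Hnf4a differed by -0.34 (SE 0.12, edgeR adjusted p = 0.199) in males.

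Other genes known as targets of PXR and CAR moved in both directions in females. Of 16, edgeR called 5 higher and 3 lower in ESR1KO females, against 3.14% higher and 2.57% lower over all tested genes. The median log2 change of the 16 was -0.040 beside -0.001 over all tested genes. In ESR1KO males 3 were higher and 0 lower, against 0.833% and 0.583% over all tested genes, with a median of 0.52 beside -0.001. The 3 that fell in females were Papss2, which makes the sulfate donor of the sulfotransferases (-1.44, edgeR adjusted p = 7.05e-06), the drug efflux pump Abcb1a (-1.19, edgeR adjusted p = 3.2e-05) and the P450 Cyp2b10 (-2.36, edgeR adjusted p = 7.1e-05). The 5 that rose, named after their values were seen, were Cyp2c55, Cyp2c29, Gsta1, Aldh1a1 and Aldh1a7. In males Cyp2b10 rose by 5.69 (SE 0.55, edgeR adjusted p = 4.99e-05), Abcb1a by 0.95 (SE 0.15, edgeR adjusted p = 0.00415) and Cyp2c55 by 1.17 (SE 0.26, edgeR adjusted p = 0.03).

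Cyp2b10 and Abcb1a therefore moved in opposite directions in the sexes, to levels that overlapped. Cyp2b10 was at 8.76 to 12.4 CPM in WT females and 0.0159 to 0.123 CPM in WT males, and at 1.36 to 2.84 CPM in ESR1KO females and 1.82 to 4.37 CPM in ESR1KO males. Abcb1a was at 11.5 to 14.9 CPM in WT females and 2.59 to 2.99 CPM in WT males, and at 4.59 to 6.78 CPM in ESR1KO females and 4.41 to 5.77 CPM in ESR1KO males. None of the 4 Cyp3a genes that fell in females passed the test in males. For Cyp3a16, Cyp3a41a and Cyp3a41b, with 0 or 1 read over each male group, the test could not show a change.

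**Figure D5:**
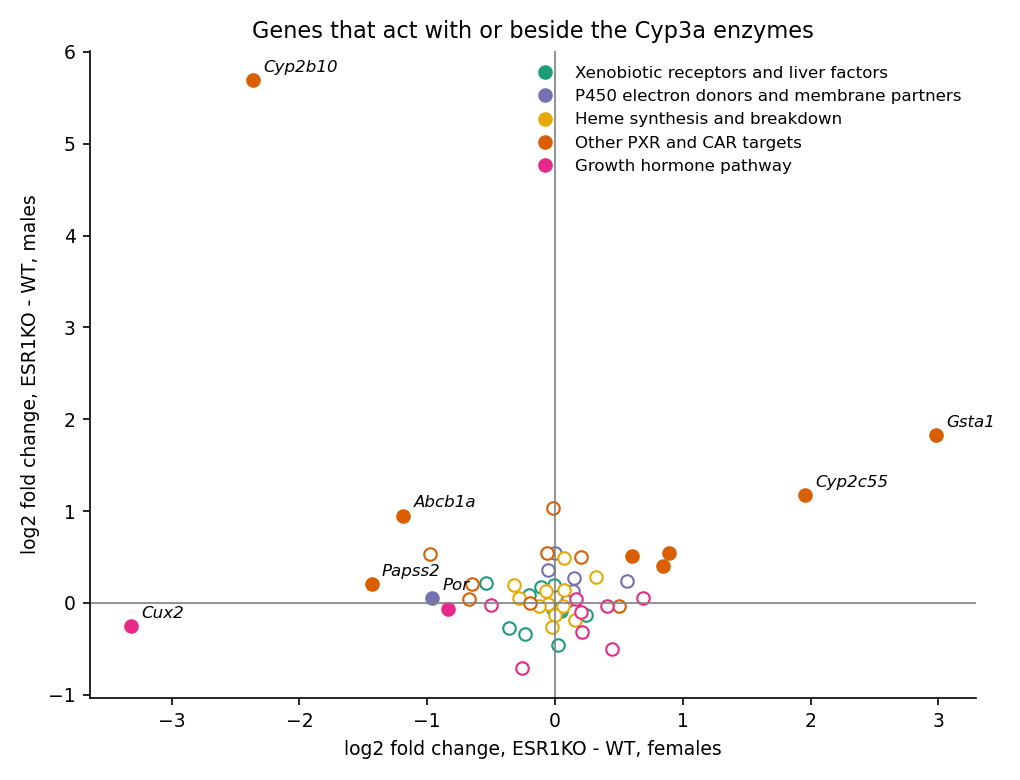
Log2 fold change of ESR1KO against WT in females (x axis) and in males (y axis) for the tested genes of 5 lists, filled where an adjusted p was under 0.05 in either sex. Cyp2b10 and Abcb1a lie in the upper left, lower in ESR1KO females and higher in ESR1KO males, and Cyp2c55 lies in the upper right.

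Of 10 genes of the growth hormone pathway, 2 fell in ESR1KO females and 0 rose. Over all tested genes 2.57% were lower and 3.14% higher there. In males edgeR and DESeq2 called 0 of the 10, and none reached an unadjusted p of 0.05. The male shares over all tested genes were 0.583% lower and 0.833% higher by edgeR. Cux2, a female-predominant repressor, was at 35.5 to 57.9 CPM in WT females and 1.71 to 10.8 CPM in ESR1KO females, a change of -3.32 on the log2 scale (SE 0.41, edgeR adjusted p = 8.78e-05). It stood at 0.325 to 0.840 CPM over the 7 males and was 3.07 higher in ESR1KO females than in ESR1KO males (SE 0.5, edgeR adjusted p = 0.0099). A link between Cux2 and the Cyp3a genes was not tested. Stat5a, a transducer of the growth hormone signal, fell by 0.84 in females (SE 0.22, edgeR adjusted p = 0.0357). In males Igf1 differed by -0.32 (SE 0.2, edgeR adjusted p = 0.595) and Socs2 by -0.71 (SE 0.55, edgeR adjusted p = 0.681).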

How the data were processed

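Liver RNA from 15 mice was sequenced after ribosomal RNA depletion, with 1 library per mouse. The authors deposited raw read counts per gene. The submitters' processing notes name Trimmomatic 0.36, STAR, HTSeq 0.6.0 and the build GRCm38. Which gene models were counted, whether strand was used and how reads matching several genes were handled is not given in the sources used here.

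Counts were tested in R 4.3.3 with edgeR 4.0.16 (TMM scaling, expression filter by group, quasi-likelihood F test) on all 4 groups together, with Benjamini-Hochberg adjustment over 17655 genes. CPM used the TMM library sizes. A group at 0 reads was bounded with 3 reads over the group, and ratios of pooled reads have exact conditional 95% intervals. DESeq2 1.42.0, other scalings, filters and call rules, a replicate block, leaving out each mouse and summing the 4 similar genes were alternatives. Leaving out 1 WT female and 1 ESR1KO male together and lengths from the coding transcript were added after the data were seen. The scripts were tested on simulated counts.

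Promoters came from RefSeq (7 of 7 matched) and positions from GENCODE M21. Alignments used Biopython 1.88. The members and lists were chosen with earlier results of these data known. All members were named, with the 3 most similar genes each and up to 4 genes per list, those of smallest p in each sex. Exceptions are marked, and 1 similar gene of Cyp3a44 is not reported here.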

Additional observations from a re-analysis of the deposited data

Results flagged for a closer look

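The effect of the Esr1 genotype differed between females and males for 2 members by the interaction test of edgeR. For Cyp3a44 the adjusted p was 0.000305: the gene fell in each of the 5 ESR1KO females against the WT females, while the male groups overlapped. For Cyp3a41a the adjusted p was 0.0305, with 1 read in the 4 ESR1KO males and 0 in the 3 WT males. Dixon's test was run on 8 combinations of a member with the ESR1KO females or the ESR1KO males, and no mouse stood apart. The WT groups of 3 mice were not tested in this way.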

How the results depend on the processing

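The count of members past the test in WT females against WT males, 4, kept this value under every alternative run except the sum of the similar genes. That sum by construction left 1 of 4 rows past the test there, in ESR1KO against WT females and in the interaction. In ESR1KO against WT females the count of 4 was 5 by DESeq2 and without a filter (with Cyp3a11) and without ESR1KO female 5 (with Cyp3a25), and 4 under the other alternatives. In ESR1KO against WT males the count was 0 under every alternative. Between ESR1KO females and males the count rose from 0 to 1, Cyp3a44, with total counts only, with DESeq2, without a filter and with only the compared groups. It ranged from 0 to 1 when 1 mouse was left out, and was 1 without WT female 2, WT female 3 or WT male 2. Against WT males the count for ESR1KO females was 2 by DESeq2 (Cyp3a44 and Cyp3a11), 0 with only the compared groups, and 0 to 1 when 1 mouse was left out. The interaction count was 3 by DESeq2 and ranged from 1 to 2 when 1 mouse was left out.

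Mice with the same replicate number showed little likeness. Over 19 pairs of mice with the same number, deviations from the group means correlated at -0.195 to 0.140, and 1 pair was over 0.1. Deviations from the means of such small groups cannot settle whether mice were paired. With the replicate number as a block, the interaction count was 1 in place of 2, and the other 5 counts were as reported. The block turned the uncalled log2 difference of Cyp3a25 to 0.022 between the ESR1KO sexes and to 0.096 in ESR1KO females against WT males.

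Of 655 fold changes under an alternative, 616 kept direction and call and 25 changed direction, none of them past the test. Cyp3a11 between the WT sexes was -0.015 without a filter and -0.16 to 0.24 when 1 mouse was left out, and Cyp3a25 in ESR1KO females against WT males was 0.0023 with total counts only and -0.17 to 0.075 when 1 mouse was left out. The other ranges when 1 mouse was left out were, between the ESR1KO sexes, -0.043 to 0.23 for Cyp3a11 and -0.16 to 0.034 for Cyp3a25. In ESR1KO against WT males they were -0.10 to 0.041 for Cyp3a13, -0.10 to 0.14 for Cyp3a25 and -0.17 to 2.22 for Cyp3a44. In the interaction they were -0.12 to 0.28 for Cyp3a11 and -0.16 to 0.039 for Cyp3a13. The causes were not tested. Without the WT female lowest in Cyp3a16 and the shallowest library, an ESR1KO male, all 6 counts were as reported, a setting chosen after seeing the data. Groups of 3 to 5 mice and single reads in the groups near 0 limit what can be told about differences there.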
